A study of Mus musculus with 12 samples.

Results

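The odorant receptor (OR) genes Olfr829 to Olfr986 lie together on mouse chromosome 9. They were taken here as every gene with a probe set of its own, that is, a probe set annotated with exactly 1 symbol made of Olfr and a number in that range, leaving out pseudogene symbols and 2 receptors of the range that the selection does not hold. This gave 103 genes, each with 1 probe set, of 1015 OR genes on the array. The samples were single sides of the main olfactory epithelium (MOE) of H2be-KO and wild-type (WT) mice after unilateral naris occlusion (UNO), in which the right nostril was closed by electrocautery at 14 days of age and stayed shut for 3 weeks. The 4 groups were the closed and the open side of H2be-KO mice and the closed and the open side of WT mice, with 3 arrays each. In the H2be-KO allele the coding sequence of H2be, a variant of histone H2B, is replaced by one for membrane-bound mCherry, and the founders were bred with C57Bl/6 mice. All mice had undergone UNO, so the open side is the other nostril's epithelium in an operated nose and not that of an untouched animal. The sample names and the study's legends give an age of 5 weeks, as do the age at surgery and the time of closure. The age field alone reads 6 months. Each sample held tissue of 2 mice, 1 female and 1 male, by the series' design text, whereas the study's legends give a larger pool. Nothing ties a closed sample to the open sample of the same mice.

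ORs are G protein-coupled receptors of olfactory sensory neurons. A neuron chooses a single OR gene, and a single allele of it, and silences the others, so the RNA of an OR measured in whole epithelium depends on the number of neurons that chose the gene and on the RNA each of them holds. These cannot be told apart in bulk tissue. By in situ hybridization, the paper reports that OR differences after UNO reflected changed frequencies of OR expression, shown for receptors outside these members. OR genes sit in arrays made by repeated duplication, and close relatives share a family number, here the MOR number that RefSeq lists as a synonym. Distant enhancers and the transcription factors Lhx2, Ldb1 and Ebf1 are known to act in OR gene choice. UNO keeps odorants from the closed side, and has long been used to ask how sensory activity shapes the neurons and their receptor repertoire.

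All 103 members matched RefSeq by gene identifier and all lay on chromosome 9, and 101 of them were protein coding. Olfr908 is listed as a transcribed pseudogene and Olfr915 as a non-coding RNA. In RefSeq order they formed a first block of 28 genes, Olfr829 to Olfr873, and a second of 75 genes, Olfr874 to Olfr986, with 159 other protein-coding genes between the blocks and 1 and 3 such genes within them. They belonged to 26 families, of which MOR171 was the largest with 25 members, followed by MOR162 and MOR165 with 8 each, while 7 families had a single member. RefSeq lists 105 coding genes in the number range once the same 2 receptors are left out, and 4 of these had no probe set of their own on the array.

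A probe set was tested where its log2 values averaged above 5 over the arrays, which left 32615 probe sets and 96 members. Log2 values of different probe sets carry their probes' own affinity, so that members are compared below between samples and not with each other. The 7 members under this floor were Olfr830, Olfr832, Olfr834, Olfr836 and Olfr837 near the start of the first block, Olfr908 and Olfr936. They took in all 3 members of MOR152 and both of MOR153. Their means ran between 3.97 and 4.92, with changes of -0.29 to 0.08 between the closed and the open side, and none was called when the floor was dropped.

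The tissue behind the arrays matched its label. Omp, the marker of mature olfactory neurons, had a mean log2 level of 12.63, and Cyp2g1 and Cbr2 of sustentacular cells 12.44 and 12.77. Array medians lay between 7.21 and 7.30. Correlations between arrays of the same group, 0.965 to 0.978, covered about the same range as those between groups, 0.963 to 0.977. H2be was 0.26 lower in KO than in WT on the open side and 0.27 lower on the closed side on the log2 scale, with limma adjusted p = 0.641 and 0.999. Its KO arrays lay below its WT arrays on both sides. They read 11.31 to 11.33 against 11.55 to 11.62 on the open side and 11.41 to 11.46 against 11.68 to 11.75 on the closed side. Which part of H2be the probes read is not given in the sources used here, so that this does not check the genotypes.

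Closure of the nostril shifted single members up or down and left the middle of the group near 0. The change was taken as the log2 value of the closed minus the open side, averaged over KO and WT, and a member was called where its limma p, adjusted by Benjamini-Hochberg over all probe sets, was under 0.05. By this rule 4 members rose on the closed side (Olfr924, Olfr912, Olfr910 and Olfr872) and 8 fell (Olfr855, Olfr981, Olfr868, Olfr972, Olfr873, Olfr921, Olfr907 and Olfr984), while 84 were not called. Among all probe sets 1.66% rose and 1.23% fell. The median change was -0.02 over the members and 0.003 over all probe sets, and 40 members had a positive and 56 a negative change. Changes of all 96 members ran between -1.21 and 0.62.

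OR genes were called more often than probe sets as a whole, so the members were also set beside the other 888 OR genes above the floor. Of the members 4.17% rose and 8.33% fell, against 10.7% and 4.5% of the other ORs, whose median change was 0.03. A second rule, the one the methods use for ORs, adjusts over OR genes alone. By it 12 members rose and 15 fell, where 16.8% of all 984 OR genes rose and 9.45% fell. The members' probe sets were also dimmer, with a median level of 6.91, against 7.25 for the other ORs. At a mean level above 7, 2 of 40 members rose and 3 fell, against 73 and 24 of 537 other ORs. At levels of 5 to 7, 2 of 56 members rose and 5 fell, against 22 and 16 of 351. The other 19 ORs of chromosome 9 above the floor, which lie outside the number range, gave 1 that rose and 2 that fell. These shares are given as a description and were not tested against each other.

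**Figure D1:**
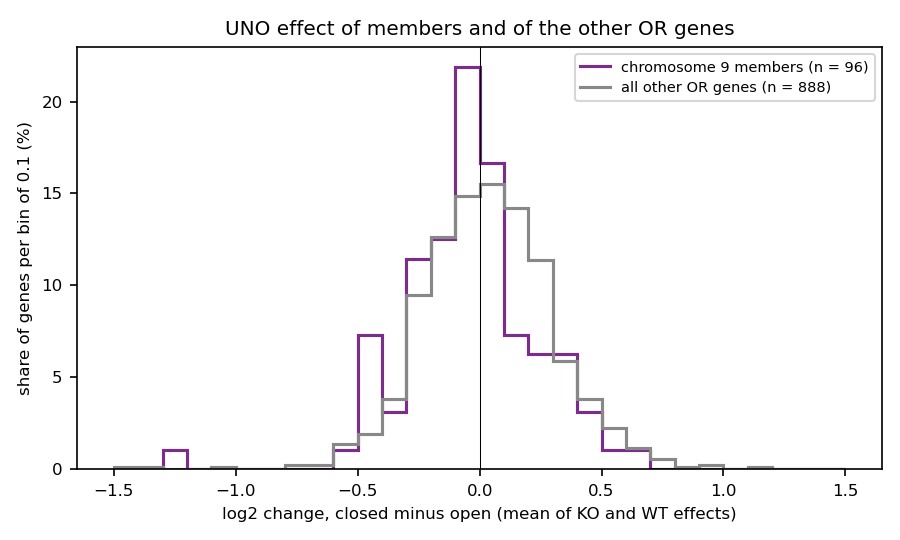
Distribution of the log2 change, closed minus open side and averaged over KO and WT (x axis), as the share of genes in each bin of 0.1 (y axis, percent), for the 96 members (purple) and the 888 other OR genes (grey). The members peak just below 0 and hold fewer values between 0.1 and 0.3 than the other ORs, and their lowest value is that of Olfr855 at -1.21.

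Olfr924, of the MOR171 family, rose most and most evenly. On the 6 closed arrays its log2 value was 7.38 at the lowest, 7.50 at the median and 7.73 at the highest, against 6.79, 6.95 and 6.99 on the 6 open arrays. Every closed array lay above every open one, and the averaged change was 0.62 ± 0.07 (SE), or 1.54-fold, with adjusted p = 0.00064 by limma. Olfr912, of MOR165, had 7.78, 7.91 and 8.26 on the closed side and 6.84, 7.51 and 7.81 on the open side. A single KO open array reached above the lowest closed array, and the change was 0.56 ± 0.11 (adjusted p = 0.0191, limma). Its neighbour and relative Olfr910 had 6.86, 6.95 and 7.18 on the closed side and 6.38, 6.52 and 6.81 on the open side, a rise of 0.43 ± 0.08 without overlap (adjusted p = 0.0168, limma). Olfr872, of MOR145, had 6.57, 6.75 and 6.99 on the closed side and 6.23, 6.42 and 6.55 on the open side. Its arrays did not overlap either, by a narrow margin, for a change of 0.37 ± 0.08 (adjusted p = 0.0249, limma).

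Olfr855, the only member of MOR148, fell further than any other member. Its log2 value was 4.61, 5.10 and 5.56 (lowest, median and highest) on the closed arrays, against 5.90, 6.35 and 6.63 on the open ones. The sides did not overlap, and the change was -1.21 ± 0.19 (SE), or 2.31-fold lower, with adjusted p = 0.00429 by limma. With this the closed side fell to values around the floor set for testing. Olfr972, of MOR171, had 8.23, 8.41 and 8.71 on the closed side and 8.81, 8.89 and 9.06 on the open side, a change of -0.47 ± 0.08 without overlap (adjusted p = 0.00564, limma). Olfr868, of MOR145, gave 7.67, 7.96 and 8.11 on the closed side against 8.25, 8.36 and 8.56 on the open side, also without overlap (-0.47 ± 0.09, adjusted p = 0.018, limma). Its relative Olfr873 had 6.38, 6.72 and 6.94 on the closed side and 6.99, 7.05 and 7.46 on the open side (-0.43 ± 0.10, adjusted p = 0.0481, limma).

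The remaining falls were of like size. Olfr981, of MOR223, gave 6.31, 6.69 and 6.93 on the closed arrays and 6.96, 7.17 and 7.36 on the open arrays (-0.51 ± 0.11, adjusted p = 0.0345, limma), so that the highest closed array lay just below the lowest open one. In the 3 others the sides overlapped slightly. Olfr921, of MOR165, had 7.05, 7.11 and 7.31 on the closed side and 7.30, 7.54 and 7.83 on the open side (-0.43 ± 0.08, adjusted p = 0.0126, limma). Olfr907, of the same family, had 6.20, 6.27 and 6.32 on the closed side and 6.32, 6.74 and 6.91 on the open side (-0.43 ± 0.10, adjusted p = 0.0389, limma). Olfr984, the only member of MOR239, had 6.50, 6.82 and 6.96 on the closed side and 6.94, 7.17 and 7.26 on the open side (-0.37 ± 0.07, adjusted p = 0.0209, limma).

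A further 15 members passed only with p-values adjusted over OR genes, 8 of them higher and 7 lower on the closed side. Olfr926, which adjoins Olfr924 and belongs to the same family, came closest to the stricter rule. Its KO arrays read 6.52, 6.68 and 6.38 on the closed side and 6.35, 6.22 and 6.19 on the open side, and its WT arrays 6.50, 6.73 and 6.72 on the closed side and 6.39, 6.22 and 6.29 on the open side. Closed and open arrays were thus apart in both genotypes, for 0.31 ± 0.07 (adjusted p = 0.0513 over all probe sets, limma). The other rises were Olfr970 (0.41 ± 0.13), Olfr979 (0.37 ± 0.11), Olfr876 (0.36 ± 0.10), Olfr845 (0.33 ± 0.10), Olfr978 (0.33 ± 0.10), Olfr943 (0.30 ± 0.10) and Olfr933 (0.27 ± 0.08). The falls were Olfr869 (-0.41 ± 0.13), Olfr870 (-0.40 ± 0.11), Olfr854 (-0.38 ± 0.10), Olfr969 (-0.28 ± 0.08), Olfr898 (-0.28 ± 0.09), Olfr944 (-0.26 ± 0.07) and Olfr835 (-0.24 ± 0.08). Olfr854 and Olfr855, both lower, are neighbours of different families, as are Olfr869 and Olfr870.

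**Figure D2:**
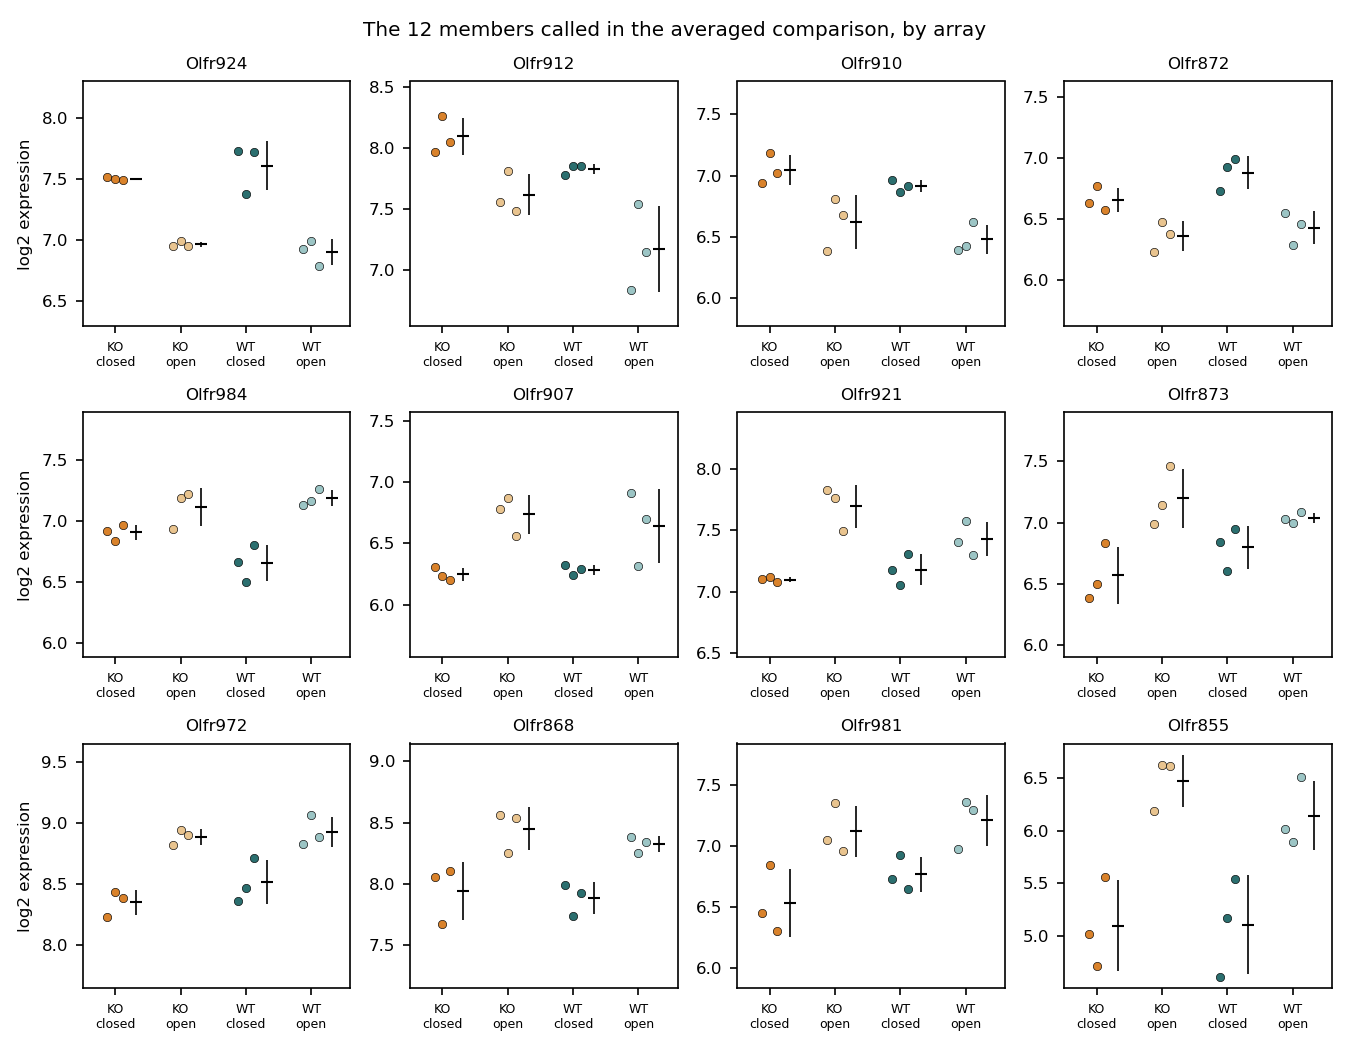
Log2 expression (y axis) of the 12 members called in the averaged comparison, on each of the 12 arrays (points), in the order KO closed, KO open, WT closed and WT open, with the mean and SD of the 3 arrays of a group beside them (bar and line). The top row holds the 4 genes that rose, and the closed arrays of Olfr924 lie at 7.38 to 7.73 in both genotypes, above all of its open arrays.

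Single arrays decided part of these calls. Leaving out each of the 12 arrays in turn, Olfr924, Olfr855, Olfr972 and Olfr921 were called every time, with adjusted p of at most 0.0032, 0.0152, 0.0196 and 0.0425. The count of called members was 6 without KO closed replicate 2 or without WT open replicate 3, and 7 without WT closed replicate 2. Olfr910 lost its call without KO closed replicate 2 or WT open replicate 1 (adjusted p of up to 0.0513 by limma), and Olfr868 without KO open replicate 1, WT open replicate 1 or WT closed replicate 2 (up to 0.0578). Olfr912 lost it in 4 of the 12 fits, namely without KO open replicate 1 or 3, KO closed replicate 2 or WT open replicate 3 (up to 0.0572), and Olfr984 in 5 (up to 0.0629), without KO open replicate 2 or 3, KO closed replicate 2, WT open replicate 3 or WT closed replicate 2. Olfr872 and Olfr981 lost it in 8 each (up to 0.0764 and 0.0916) and Olfr873 and Olfr907 in 10 each (up to 0.119 and 0.102).

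Called members were spread along the chromosome and did not share a direction. The first block held 1 that rose and 3 that fell among its 23 tested members, with a median change of -0.14. The second held 3 that rose and 5 that fell among 73, with a median of -0.01. These are 4.35% and 13% of the first block and 4.11% and 6.85% of the second. Of all probe sets, 1.66% rose and 1.23% fell. Over OR genes alone, 2 members of the first block rose and 7 fell (8.7% and 30.4%). In the second, 10 rose and 8 fell (13.7% and 11%), beside 16.8% and 9.45% of all OR genes. Changes were positive in 7 and negative in 16 members of the first block, and 33 and 40 of the second. The blocks were not tested against each other. Over the 94 pairs of neighbours within a block, the correlation of their changes was 0.13 (Pearson) and 0.03 (Spearman), given as a description since neighbours share the arrays, and 49 pairs (52.1%) had the same sign. Olfr910 and Olfr912 were the only neighbours that were both called in the same direction. Olfr872 and Olfr873 lie side by side and moved in opposite directions, as did Olfr907 and Olfr910, the nearest tested genes on each side of Olfr908. By the adjustment over OR genes alone, neighbours called alike made 6 pairs, among them Olfr868 with Olfr869 and Olfr924 with Olfr926, and neighbours called in opposite directions made 4.

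**Figure D3:**
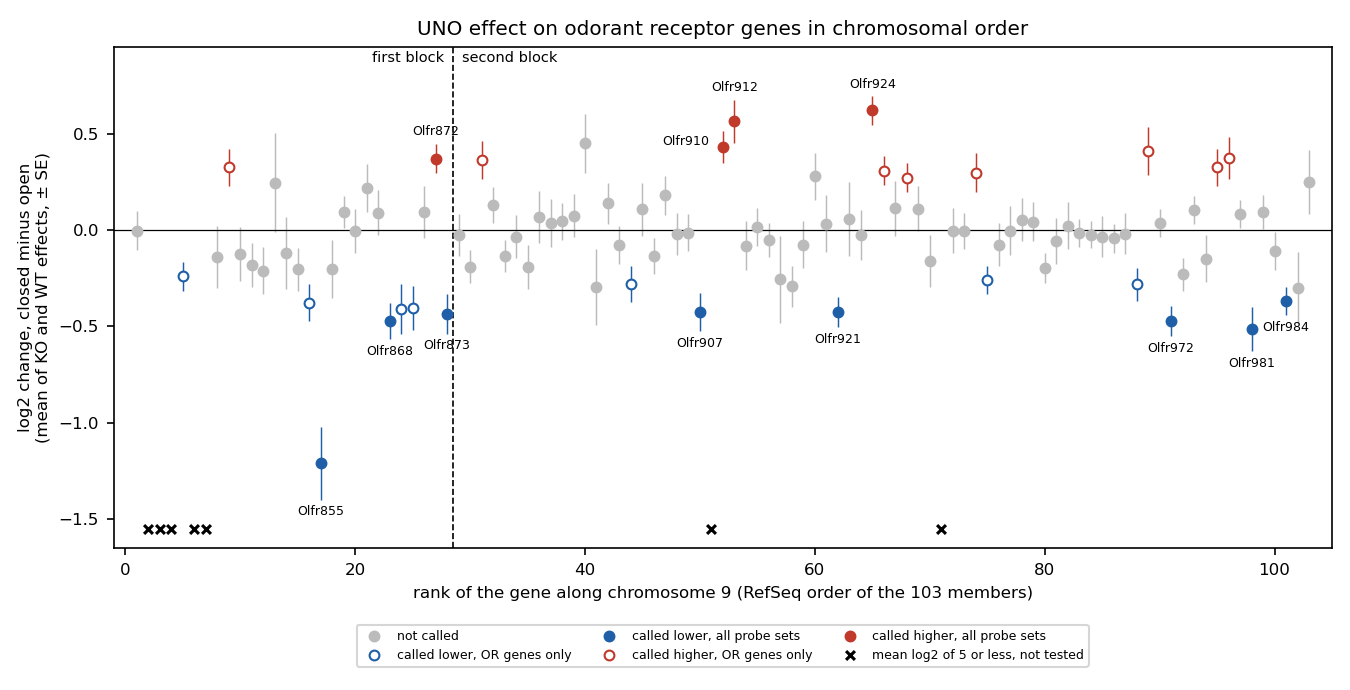
Log2 change, closed minus open side and averaged over KO and WT (y axis, ± SE), of each member by its rank along chromosome 9 in RefSeq order (x axis). Filled points are called over all probe sets, open points over OR genes alone (red higher, blue lower), grey points are not called, crosses at the bottom mark the 7 members under the floor, and the dashed line parts the 2 blocks. Rises and falls are interspersed, as at Olfr872 and Olfr873.

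Some families also held called members of both directions. The families named here were singled out after the calls were seen. By the same rule 10.1% of all OR genes rose and 4.88% fell, and of all probe sets 1.66% and 1.23%. MOR165 held 4 of the 12 called members among its 7 tested genes, Olfr910 and Olfr912 higher and Olfr907 and Olfr921 lower, and its median was 0.02. In MOR145, 3 of 5 genes were called, Olfr872 higher and Olfr868 and Olfr873 lower, and the family's median was -0.41. Their relative Olfr869 had a change of -0.41 ± 0.13 and passed only over OR genes (adjusted p = 0.0394, against 0.156 over all probe sets, limma). The large family MOR171, with 24 tested genes, had Olfr924 higher and Olfr972 lower and a median of -0.005. Over OR genes alone it had 5 higher and 3 lower, among the first Olfr926 at 0.31 ± 0.07 and Olfr933 at 0.27 ± 0.08. No gene of MOR162 (8 tested) or MOR224 (7 tested) was called by either rule, and their changes stayed between -0.19 and 0.11. In MOR223, Olfr981 fell, while Olfr978 (0.33 ± 0.10) and Olfr979 (0.37 ± 0.11) passed over OR genes only.

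**Figure D4:**
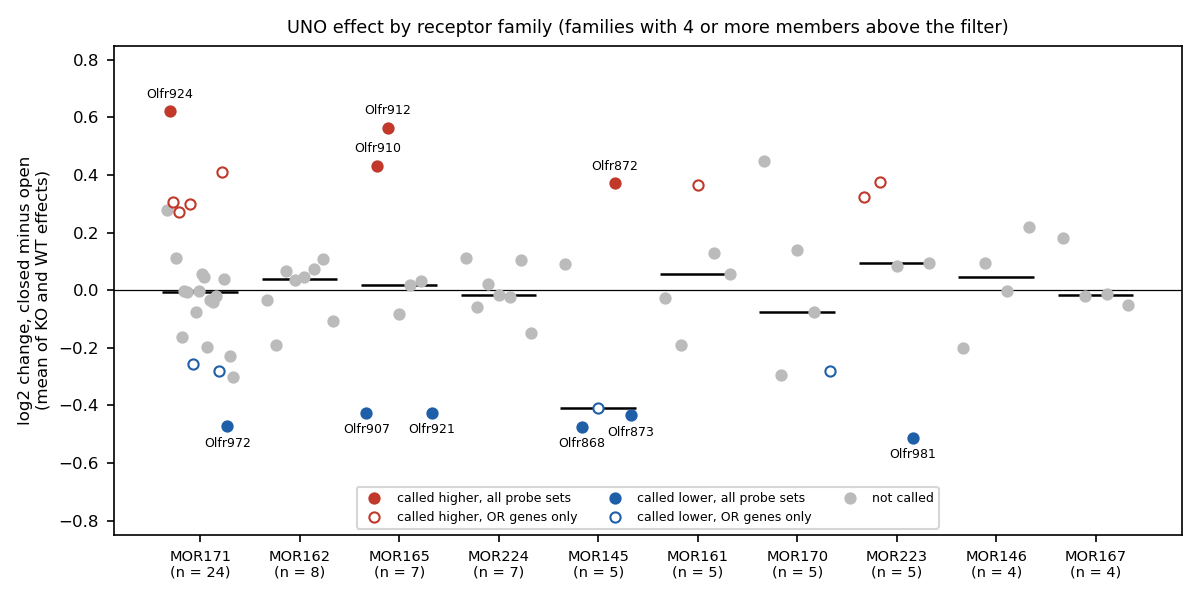
Log2 change, closed minus open side and averaged over KO and WT (y axis), of the tested members of each family with at least 4 of them (x axis), ordered along the chromosome within a family. Colours are as in the plot by chromosomal order, and the black line is the family's median. MOR165 and MOR145 hold called genes on both sides of 0, and MOR162 and MOR224 none.

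The stretches before the transcription start are shown for called genes of families in which relatives moved in opposite directions. These families were MOR165, MOR145 and MOR171. A gene is shown only where RefSeq has a single window for it with a start upstream of the coding sequence. This leaves out Olfr907, Olfr873 and both called genes of MOR171, Olfr924 and Olfr972. Of 89 members with a window in the RefSeq promoter table (GRCm38.p6), 58 have a gene model that begins at the coding start, so that their window is no promoter, and 31 have an upstream start. The 250 bases before the start are given 5′ to 3′ on the plus strand. Capitals mark matches, on either strand, to TAATTA or TAATGA, cores bound by homeodomain proteins such as Lhx2, and to TATAAA. Olfr910 (chr9:38537632-38537881) and Olfr912 (chr9:38579994-38580243) rose, and Olfr921 (chr9:38772838-38773087) fell. In MOR145, Olfr872 (chr9:20236912-20237161) rose and Olfr868 (chr9:20098376-20098625) fell.
Olfr910: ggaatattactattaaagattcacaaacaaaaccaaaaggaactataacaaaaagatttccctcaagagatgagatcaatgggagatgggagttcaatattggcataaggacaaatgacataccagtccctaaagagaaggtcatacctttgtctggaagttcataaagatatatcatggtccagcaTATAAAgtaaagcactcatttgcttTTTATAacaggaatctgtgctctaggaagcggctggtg
Olfr912: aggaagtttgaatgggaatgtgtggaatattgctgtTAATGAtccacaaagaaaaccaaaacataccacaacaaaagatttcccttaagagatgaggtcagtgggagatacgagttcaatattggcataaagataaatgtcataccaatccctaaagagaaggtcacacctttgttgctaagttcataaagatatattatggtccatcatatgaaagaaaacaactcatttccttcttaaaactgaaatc
Olfr921: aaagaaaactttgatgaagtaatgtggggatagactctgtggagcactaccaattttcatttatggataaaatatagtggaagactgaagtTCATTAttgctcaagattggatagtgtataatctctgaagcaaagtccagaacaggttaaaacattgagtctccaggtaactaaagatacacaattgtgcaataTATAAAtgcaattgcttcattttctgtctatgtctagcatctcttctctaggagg
Olfr872: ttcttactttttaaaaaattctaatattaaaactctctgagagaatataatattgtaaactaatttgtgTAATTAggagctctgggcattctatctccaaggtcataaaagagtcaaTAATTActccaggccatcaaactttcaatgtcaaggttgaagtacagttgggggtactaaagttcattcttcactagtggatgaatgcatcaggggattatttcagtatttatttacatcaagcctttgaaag
Olfr868: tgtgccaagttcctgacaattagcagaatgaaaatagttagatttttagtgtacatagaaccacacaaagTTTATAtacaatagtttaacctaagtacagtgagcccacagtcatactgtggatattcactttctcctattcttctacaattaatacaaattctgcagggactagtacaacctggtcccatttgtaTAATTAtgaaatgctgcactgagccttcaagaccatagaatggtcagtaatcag

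The upstream stretches of Olfr910 and Olfr912, which rose together, were 70.5% identical in a global alignment. That of Olfr921, which fell, was 56.8% identical to Olfr910 and 54.0% to Olfr912, while pairs from different families among these 5 genes had 51.6 to 55.0%. Olfr868 and Olfr872 shared 49.2%, no more than unrelated pairs. The letters TAATTA were found in Olfr872 (2 matches, first bases at -181 and -133) and Olfr868 (at -54), TAATGA in Olfr912 (-214) and Olfr921 (-159), and TATAAA in Olfr910 (-63 and -38), Olfr921 (-55) and Olfr868 (-180). Among the 32 windows of members with an upstream start, in all 300 bases, 25.0% held TAATTA, against 18.5% of such windows of all OR genes and 5.29% of all windows of the table. TAATGA was in 34.4%, against 34.0% and 9.78%, and TATAAA in 43.8%, against 34.7% and 13.6%. TCCCNNGGG, the form of site bound by Ebf proteins, was in 3.12%, against 6.56% of windows of all OR genes and 6.56% of all windows. The motifs do not overlap each other in the printed stretches, and a match is a string of letters and not a bound site.

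The effect of UNO was next taken in each genotype by itself, to ask whether loss of H2be altered it. In KO mice, 1 member was called higher and 3 lower on the closed side (of all probe sets 0.705% rose and 0.34% fell). Over OR genes alone 3 were higher and 8 lower (8.03% and 3.96% of all OR genes). Among the 3 was Olfr891, whose mean of 5.05 barely passed the floor and whose KO open arrays all lay below it. In WT mice, 1 member was called higher and 1 lower (of all probe sets 0.475% and 0.38%), and over OR genes alone 5 were higher and 5 lower (9.15% and 3.86%). The medians were 0.01 in KO and -0.07 in WT. Olfr924 alone was called in both genotypes over all probe sets, 1.04% of the members, where 0.619% of all probe sets and 3.49% of the other ORs were called in both in the same direction. Over OR genes, 5 members were called in both in the same direction (Olfr924, Olfr910, Olfr855, Olfr972 and Olfr868) and 0 in opposite directions. These are 5.21% of the members, against 8% of the other ORs (71 of 888).

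Olfr924 had log2 values of 7.51, 7.50 and 7.49 on the KO closed arrays and 6.95, 6.99 and 6.95 on the KO open arrays. In WT it had 7.73, 7.38 and 7.72 on the closed side and 6.93, 6.99 and 6.79 on the open side. Both genotypes were free of overlap, with a change of 0.53 ± 0.10 in KO (adjusted p = 0.033, limma) and 0.71 ± 0.10 in WT (adjusted p = 0.00848, limma). The KO change minus the WT change, -0.17 ± 0.15, was not called.

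Olfr855 was at 5.02, 4.71 and 5.56 on the KO closed arrays and at 6.19, 6.63 and 6.62 on the KO open arrays, and in WT at 4.61, 5.17 and 5.55 on the closed side and 6.02, 5.90 and 6.52 on the open side. Its closed arrays thus lay below its open arrays in both genotypes. The change was -1.38 ± 0.27 in KO (adjusted p = 0.033, limma) and -1.04 ± 0.27 in WT, which was called only over OR genes (adjusted p = 0.0255, against 0.133 over all probe sets, limma).

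Olfr921 and Olfr972 completed the calls in KO. Olfr921 had 7.10, 7.12 and 7.07 on the KO closed arrays against 7.83, 7.77 and 7.50 on the KO open arrays, a change of -0.60 ± 0.11 (adjusted p = 0.0283, limma). In WT its values were 7.17, 7.05 and 7.31 on the closed side and 7.41, 7.58 and 7.30 on the open side, which overlap (-0.25 ± 0.11, adjusted p = 0.52, limma). Olfr972 had 8.23, 8.43 and 8.38 on the KO closed side and 8.81, 8.94 and 8.90 on the KO open side (-0.54 ± 0.11, adjusted p = 0.043, limma), and its WT change was -0.41 ± 0.11. The call in WT besides Olfr924 was Olfr984. It had 6.92, 6.84 and 6.96 on the KO closed side and 6.94, 7.18 and 7.22 on the KO open side (-0.21 ± 0.11), and 6.66, 6.50 and 6.80 on the WT closed side and 7.13, 7.16 and 7.26 on the WT open side (-0.53 ± 0.11, adjusted p = 0.0439, limma). For none of these did the KO change minus the WT change pass the test. In WT, Olfr984 was called in only 1 of the 12 fits that left out an array, and Olfr924 lost its call without WT open replicate 3 (adjusted p = 0.0548, limma). The KO calls of Olfr924, Olfr855, Olfr921 and Olfr972 were lost in 7, 7, 5 and 9 of these fits, with adjusted p of up to 0.142, 0.144, 0.142 and 0.192.

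Across the 96 members, the change in KO and the change in WT, which share no arrays, had a correlation of 0.73 (Pearson) and 0.72 (Spearman), as a description over genes. The sign was the same in 65 members and opposite in 31. In 12 members the closed and open arrays did not overlap in either genotype, 7 of them higher and 5 lower on the closed side in both, and in 0 members were they apart in opposite directions. This is 7.29% and 5.21% of the members, beside 12.3% and 5.18% of the other ORs and 2.66% and 2.16% of all probe sets.

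**Figure D5:**
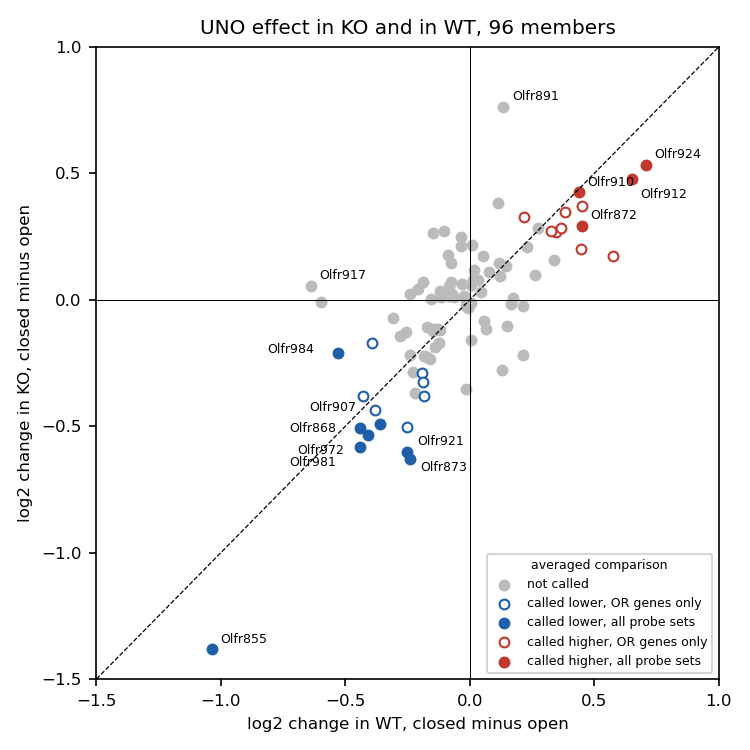
Log2 change, closed minus open side, in KO (y axis) against that in WT (x axis) for the 96 tested members, coloured by their call in the averaged comparison. The dashed line marks equal changes. The called members lie at the lower left and upper right, from Olfr855 (-1.38 in KO, -1.04 in WT) to Olfr924 (0.53 in KO, 0.71 in WT), whereas Olfr917 and Olfr891 lie far from the line. Calls made on the average of both changes favour these corners by construction.

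KO and WT were compared directly on each side to ask whether loss of H2be changed the members' levels. By limma, 0 members were called on the open side (0.0215% of all probe sets), 0 on the closed side (0.0245%) and 0 for the KO change minus the WT change (0% of all probe sets). At an unadjusted p under 0.05 there were 13, 8 and 3 of the 96 members, beside 55, 58 and 30 of the 888 other ORs. Of all probe sets, 6.67%, 4.26% and 4.01% were under this level. The median difference was 0.001 on the open and -0.01 on the closed side, and the SD over genes was 0.23 and 0.21 for the members and 0.17 on both sides for the other ORs.

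The members farthest apart between the genotypes mostly had mean log2 values under 7. Olfr916, of MOR168, had 5.89, 5.93 and 6.05 on the KO open arrays and 4.65, 5.44 and 5.50 on the WT open arrays, and 5.33, 6.03 and 5.66 on the KO closed arrays against 4.36, 4.81 and 5.74 on the WT closed arrays. The differences were 0.76 ± 0.32 on the open and 0.70 ± 0.32 on the closed side, with adjusted p = 0.716 and 0.999 by limma. Its neighbour Olfr917 had a difference of the opposite sign on the open side, with 5.26, 5.16 and 5.02 in KO and 5.81, 5.44 and 5.68 in WT (-0.50 ± 0.15, adjusted p = 0.641, limma). Olfr913, of MOR165, was the one named member whose KO arrays lay above its WT arrays on both sides, at 6.07, 6.07 and 6.42 in KO against 5.87, 5.50 and 5.89 in WT on the open side and 6.47, 6.01 and 6.22 in KO against 5.23, 5.87 and 5.54 in WT on the closed side. Its differences were 0.43 ± 0.18 (open) and 0.68 ± 0.18 (closed), and neither was called (adjusted p = 0.716 and 0.999, limma).

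None of the other extremes was called. On the open side, Olfr893 (0.58 ± 0.28) and Olfr874 (0.47 ± 0.16) were higher in value in KO, and Olfr891 (-0.70 ± 0.22) and Olfr888 (-0.40 ± 0.18) lower. On the closed side, Olfr985 differed by 0.71 ± 0.26, with 6.02, 6.30 and 6.10 in KO and 4.68, 5.59 and 6.03 in WT, where a single WT array stood well below the others. Olfr945 (-0.45 ± 0.16), Olfr894 (-0.35 ± 0.15) and Olfr829 (-0.34 ± 0.15) had lower values in KO.

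In the KO change minus the WT change, Olfr917 stood first at 0.69 ± 0.21. In KO its closed arrays (5.37, 5.27 and 4.97) and open arrays (5.26, 5.16 and 5.02) overlapped, whereas in WT its closed arrays (4.73, 5.18 and 5.10) lay below its open arrays (5.81, 5.44 and 5.68). Olfr891, of MOR170, followed at 0.63 ± 0.31, with 5.31, 5.27 and 5.13 on the KO closed side and 4.84, 4.04 and 4.54 on the KO open side against 5.66, 4.83 and 5.43 on the WT closed side and 5.09, 5.32 and 5.10 on the WT open side. Both sit near the floor of 5, and their adjusted p was 1 by limma, as it was for Olfr985 (0.59 ± 0.37), Olfr829 (-0.43 ± 0.21), Olfr945 (-0.41 ± 0.22) and Olfr979 (-0.40 ± 0.22). The 95% interval of this difference, not adjusted for the number of tests, was 0.23 to 1.16 for Olfr917 and -0.05 to 1.31 for Olfr891. Over OR genes alone, Olfr917 was called lower on the closed side in WT and Olfr891 higher in KO. A call within a single genotype is no test of a difference between them.

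Genes of the cells that carry ORs moved beside the members on the closed side. Of 12 mature olfactory neuron markers, 8 rose in the averaged comparison and 1, Slc17a6, the vesicular glutamate transporter, fell (-0.36 ± 0.06), with a median of 0.26. Cnga4, a subunit of the olfactory cyclic nucleotide-gated channel, rose by 0.40 ± 0.05, whereas Omp was at 0.03 ± 0.05. The mean level of the 12 lay between 11.37 and 11.38 on KO closed arrays and between 11.11 and 11.21 on KO open arrays, and between 11.28 and 11.39 on WT closed arrays and between 11.13 and 11.16 on WT open arrays. Of 9 immature neuron markers, 6 fell, with a median of -0.26. Their mean level was 9.92 to 9.95 on KO closed and 10.12 to 10.19 on KO open arrays, and 9.88 to 9.99 on WT closed and 10.16 to 10.18 on WT open arrays. Of 7 measured progenitor and basal cell markers, Neurod1 alone fell (-0.27). Among 8 sustentacular, 5 respiratory ciliated, 4 microvillous and tuft cell, 5 gland and 3 measured immune and blood markers, 0 were called. The part of these shifts in the members' changes was not tested.

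Among 23 factors of OR gene choice and OR trafficking, 4 rose on the closed side and 0 fell. These were Adcy3 (0.29 ± 0.05), the adenylyl cyclase of olfactory neurons that also feeds back on OR choice, its G protein Gnal (0.31 ± 0.06), and the OR chaperones Rtp1 (0.27 ± 0.05) and Reep1 (0.28 ± 0.06). Adcy3, Gnal and Rtp1 also stand among the neuron markers. The factors that act on OR enhancers and promoters were not called, with Lhx2 at 0.02 ± 0.06, Ldb1 at -0.10 ± 0.06 and Ebf1 at -0.09 ± 0.06, nor was the demethylase Kdm1a (-0.15 ± 0.07). Between KO and WT, 0 of the 23 were called on either side by limma.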

How the data were processed

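RNA of single sides of the MOE was hybridised to 12 Affymetrix Mouse Gene 1.0 ST arrays, 3 per group. The authors used Affymetrix Expression Console for sketch-quantile normalization and IterPLIER summarization, and the deposited values are log2 expression, 1 per probe set and array (35556 probe sets, 0 missing values). Program versions and the genome build of the probe annotation are not given in the sources used here. Quantile normalization sets equal distributions, so that changes are relative to the other probe sets.

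Probe sets with a mean log2 of 5 or less (2941) were removed, as in the study's methods, and 1 mean per group was fitted to all 12 arrays with limma 3.58.1 (lmFit, eBayes) in R 4.3.3. Contrasts were closed minus open averaged over genotypes, in KO and in WT, KO minus WT for either side, and the KO change minus the WT change. Tests were two-sided, and Benjamini-Hochberg p-values under 0.05 were called, over all probe sets and, as a second rule, over the 984 OR genes. Each test had 11.5 degrees of freedom. The methods name the samples of a group as biological replicates, each a pool of mice. The fit was checked on simulated data.

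Members, gene lists and tests were chosen with earlier results of these data known. For each UNO contrast the rule for naming took up to 8 rises and 8 falls among called members whose sides did not overlap, for each contrast of genotypes the 3 extremes in each direction, and the 3 highest and lowest mean levels, which are not ranked here because probe sets differ in affinity. Olfr912 was taken by the rule, since its sides were apart within each genotype. Called members whose arrays overlapped within a genotype were taken by the rule only through the other genotype. These were Olfr907 and Olfr921, taken in KO, and Olfr984, taken in WT. Their averaged changes, and members named for a family or neighbour, were added after the values were seen. Of all probe sets, 21789 had 1 gene symbol, 1621 several and 12146 none. Gene order, families and promoter windows come from RefSeq (GRCm38.p6), and alignments were made with Biopython 1.88. Alternatives were other filters, normalizations, variance models and sample sets, a replicate block, and leaving out each array. Figures were drawn with matplotlib 3.10.9.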

Additional observations from a re-analysis of the deposited data

How the results depend on the processing

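Counts of called members moved with the adjustment and with the arrays in the fit. Adjusted over OR genes alone, 27 members were called on the average, 10 in WT and 11 in KO. Under the other alternatives the averaged count was 9 to 14. In WT the count of 2 became 1 without a filter or with median centring, 4 with trend and robust variances, and 0 with only the WT arrays in the fit. In KO the count of 4 became 2 without a filter and 0 with only the KO arrays. Leaving out each array in turn gave 6 to 12 members on the average, 0 to 2 in WT and 0 to 4 in KO, and 0 throughout for the genotype contrasts. A filter that asked for every array to lie above log2 5, chosen after seeing the data, gave 13 on the average, 2 in WT and 3 in KO. Single members were recomputed only where called on the average over all probe sets or taken by the rule for naming. Other members named above, such as Olfr970 and Olfr869, were not recomputed. None of the recomputed members changed direction while called. They kept their side of the threshold in 1020 of the recomputed cases, lost it in 115 and gained it in 35. These cases include members not called in the main fit, among them the extremes of the genotype contrasts. Only a call of the main fit could be lost.

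The replicate block, which pairs open and closed samples of a genotype by their number, gave 9 members on the average (Olfr872, Olfr907 and Olfr921 lost their calls) and 0 in WT. In KO all 4 calls were lost under it, and 1 other member, Olfr873, was called (-0.63, adjusted p = 0.0438, limma). Deviations of same-numbered samples correlated at 0.05, 0.23 and 0.03 in KO and -0.01, 0.17 and 0.02 in WT, so that same-numbered samples were not treated as pairs.

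Members near a log2 of 5 lie close to the background of the array, and 7 tested members had an array below it (lowest 4.04). The number of arrays, 3 per group, limits the precision.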

Other observations

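Of the probe sets that carry the symbols of a member together with those of other receptors, 6 in number, none was called in the averaged comparison by limma, and they enter no count above. The one shared by Olfr954 and Olfr951 had a change of -0.61 between the closed and the open side (adjusted p = 0.19, limma), beside 0.04 for the probe set that reads Olfr954 alone. The one shared by Olfr933 and Olfr26 had a change of 0.19, beside 0.27 for the probe set that reads Olfr933 alone. A probe set shared by Olfr938, Olfr952 and Olfr955 was at 0.09, beside -0.01 for Olfr938 and 0.05 for Olfr952 on their own probe sets.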
